A study of Mus musculus with 4 samples.

Results

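Open chromatin around the 6 genes of the TNF receptor superfamily that costimulate Treg cells, Tnfrsf4, Tnfrsf18, Tnfrsf9, Tnfrsf1b, Cd27 and Tnfrsf25, was examined in lymph node (LN) Treg cells of WT and Il2ramut/mut mice. Every peak that overlapped the gene body of a member or the 20 kb on either side was taken, and peaks of different libraries that shared at least 1 bp were joined into 1 region. This gave 91 regions out of 272233 in the whole series. No measured value entered the rule, though the genes were picked with earlier results of these data known. Each library was made by ATAC-seq, which maps open chromatin regions (OCRs) by the insertion of a transposase into accessible DNA, from 50000 RFP+ cells that were enriched by negative bead selection and then sorted. Both genotypes were C57BL/6 females of 6 to 8 weeks, unstimulated, and both carried the Foxp3 Rfp/Rfp reporter that marks Foxp3+ cells. Il2ramut/mut mice carry in addition a point mutation of the IL-2 receptor alpha chain, CD25, that lowers CD25 at the cell surface and the signals from high-affinity IL-2 binding. The allele was found in a Ccr2-/- colony and separated from the Ccr2 deletion by crossing to C57BL/6. There were 2 libraries per genotype, from 2 mice per genotype. The question that these libraries address is whether reduced IL-2 signals leave a mark on the chromatin of peripheral Treg cells, and here it is asked at the costimulatory receptors.

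The 6 receptors are transmembrane proteins that bind ligands of the TNF superfamily. Their cytoplasmic tails recruit TRAF adaptors, and DR3 also recruits TRADD, which leads to activation of NF-kB. OX40 (Tnfrsf4), GITR (Tnfrsf18), 4-1BB (Tnfrsf9), TNFR2 (Tnfrsf1b), CD27 and DR3 (Tnfrsf25) are all found on Treg cells, where they are known to support proliferation and survival and, for several of them, to tune suppression. IL-2 acts through STAT5, a transcription factor that Treg cells need. The neighbouring genes Tnfrsf4 and Tnfrsf18 lie 9551 bp apart on chromosome 4, and 16 of their regions fall in both windows. Tnfrsf9, Tnfrsf1b and Tnfrsf25 are also on chromosome 4 and Cd27 is on chromosome 6.

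The regions that carry the results are shown first as sequence, plus strand of GRCm38, 5′ to 3′. Each is the part of the 300 bases around the highest summit that lies outside annotated untranslated exons, and capitals mark a match, on either strand, to a motif word. The words seen in these windows are TTCNNNGAA for the factor STAT5, TGANTCA for the factors of the AP-1 family, CNGGAAGT for those of the ETS family, TGTGGTT for RUNX factors, and AGATAA for the GATA factors. The first was the strongest region upstream of Tnfrsf1b and holds a pair of STAT5 words, the second was the strongest region of all 91 and lies in intron 1 of Tnfrsf1b, and the third was the strongest region between Tnfrsf4 and Tnfrsf18. Then follow the promoters of Tnfrsf4 and Cd27, whose printed stretches hold none of the words. The next lies in intron 1 of Tnfrsf9. The one downstream of Tnfrsf9 had the largest log2 difference in fold enrichment between genotypes.
Tnfrsf1b upstream, chr4:145254518-145254817: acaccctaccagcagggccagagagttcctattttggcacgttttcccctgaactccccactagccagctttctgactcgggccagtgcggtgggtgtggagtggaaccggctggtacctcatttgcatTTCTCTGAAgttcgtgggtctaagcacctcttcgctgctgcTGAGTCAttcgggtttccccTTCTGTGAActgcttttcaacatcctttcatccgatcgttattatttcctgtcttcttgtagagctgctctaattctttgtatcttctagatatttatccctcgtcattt
Tnfrsf1b intron 1, chr4:145236103-145236402: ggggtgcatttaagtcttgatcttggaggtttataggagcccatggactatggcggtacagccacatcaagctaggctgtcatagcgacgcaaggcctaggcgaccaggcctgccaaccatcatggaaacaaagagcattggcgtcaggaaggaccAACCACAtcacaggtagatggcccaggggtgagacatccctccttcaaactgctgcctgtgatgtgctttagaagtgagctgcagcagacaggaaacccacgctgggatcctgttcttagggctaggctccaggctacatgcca
Between Tnfrsf4 and Tnfrsf18, chr4:156022271-156022570: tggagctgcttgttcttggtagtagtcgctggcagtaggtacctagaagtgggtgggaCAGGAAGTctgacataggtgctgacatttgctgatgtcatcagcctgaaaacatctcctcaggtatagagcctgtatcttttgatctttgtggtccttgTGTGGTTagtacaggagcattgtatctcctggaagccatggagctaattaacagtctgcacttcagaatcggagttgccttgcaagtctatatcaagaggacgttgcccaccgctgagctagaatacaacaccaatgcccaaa
Tnfrsf4 promoter, chr4:156013633-156013842: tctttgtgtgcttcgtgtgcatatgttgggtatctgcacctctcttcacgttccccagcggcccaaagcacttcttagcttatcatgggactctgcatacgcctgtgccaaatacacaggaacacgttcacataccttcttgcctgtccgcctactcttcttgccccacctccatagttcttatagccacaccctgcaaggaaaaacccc
Cd27 promoter, chr6:125237011-125237246: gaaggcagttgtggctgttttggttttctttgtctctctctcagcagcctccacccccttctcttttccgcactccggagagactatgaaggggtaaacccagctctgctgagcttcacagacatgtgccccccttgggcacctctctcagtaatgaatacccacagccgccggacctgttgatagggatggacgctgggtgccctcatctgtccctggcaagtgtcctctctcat
Tnfrsf9 intron 1, chr4:150924325-150924624: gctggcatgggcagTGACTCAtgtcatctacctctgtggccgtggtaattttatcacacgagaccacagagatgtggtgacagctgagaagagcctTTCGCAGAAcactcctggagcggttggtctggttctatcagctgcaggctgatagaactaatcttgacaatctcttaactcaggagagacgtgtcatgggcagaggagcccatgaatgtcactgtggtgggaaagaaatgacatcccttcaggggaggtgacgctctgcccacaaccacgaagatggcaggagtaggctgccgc
Tnfrsf9 downstream, chr4:150951068-150951367: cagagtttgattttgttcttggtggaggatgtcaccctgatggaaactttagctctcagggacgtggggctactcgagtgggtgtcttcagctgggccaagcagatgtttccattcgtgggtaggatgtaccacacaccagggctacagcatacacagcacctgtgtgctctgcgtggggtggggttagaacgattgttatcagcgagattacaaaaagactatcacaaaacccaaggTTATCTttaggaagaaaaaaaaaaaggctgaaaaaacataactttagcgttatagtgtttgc

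Between 112569 (WT replicate 1) and 142732 peaks (Il2ramut/mut replicate 2) had been called in a library. A peak is described by its fold enrichment over the background of its library and by its percentile, the percent of peaks in the same list with a lower −log10 p, counting ties as 0.5. Read totals are unknown, and the lowest −log10 q in a list ran from 1.30 to 1.70, so the lists did not end at the same stringency. The libraries correlated at 0.944 within WT and 0.946 within Il2ramut/mut, and at 0.924 to 0.938 between genotypes, over log2 fold enrichments of regions called in every library. Fold enrichment was highest in WT replicate 2 at 33 of the 54 member regions called in all 4 libraries and at 54.9% of all such regions, so raw folds are given per library and compared only after scaling. In a cell population, a smaller share of cells with an open region and less accessibility per cell cannot be told apart.

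The receptor loci were rich in regions shared by every library. Of the 91 regions, 54 (59.3%) were called in all 4 libraries, against 14.1% of all regions and 19.1% of regions within 20 kb of a coding gene. Only 21 (23.1%) were called in a single library, against 61.3% of all regions. The members also ranked high, with a median percentile of 89.0 over the 54 regions and of 83.7 over all regions called in all 4 libraries. Regions called in 1 library were narrow and weak, with a median width of 249 bp and a median percentile of 46.7, whereas the 54 had a median width of 830 bp. A joined region spans all of its peaks, so this difference in width is in part set by the joining. Within 1 kb of the start of a coding transcript were 18 of the 54 (33.3%), against 29.5% of all regions called in all 4 libraries. Tnfrsf1b had the most regions, 28 with 14 in all 4 libraries. Tnfrsf9 had 14, of which 12 were called in all 4 libraries. Tnfrsf4, Tnfrsf18 and Tnfrsf25 had 18, 16 and 18 regions with 10, 8 and 10 in all 4 libraries, and Cd27 had 13 with 8.

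**Figure D1:**
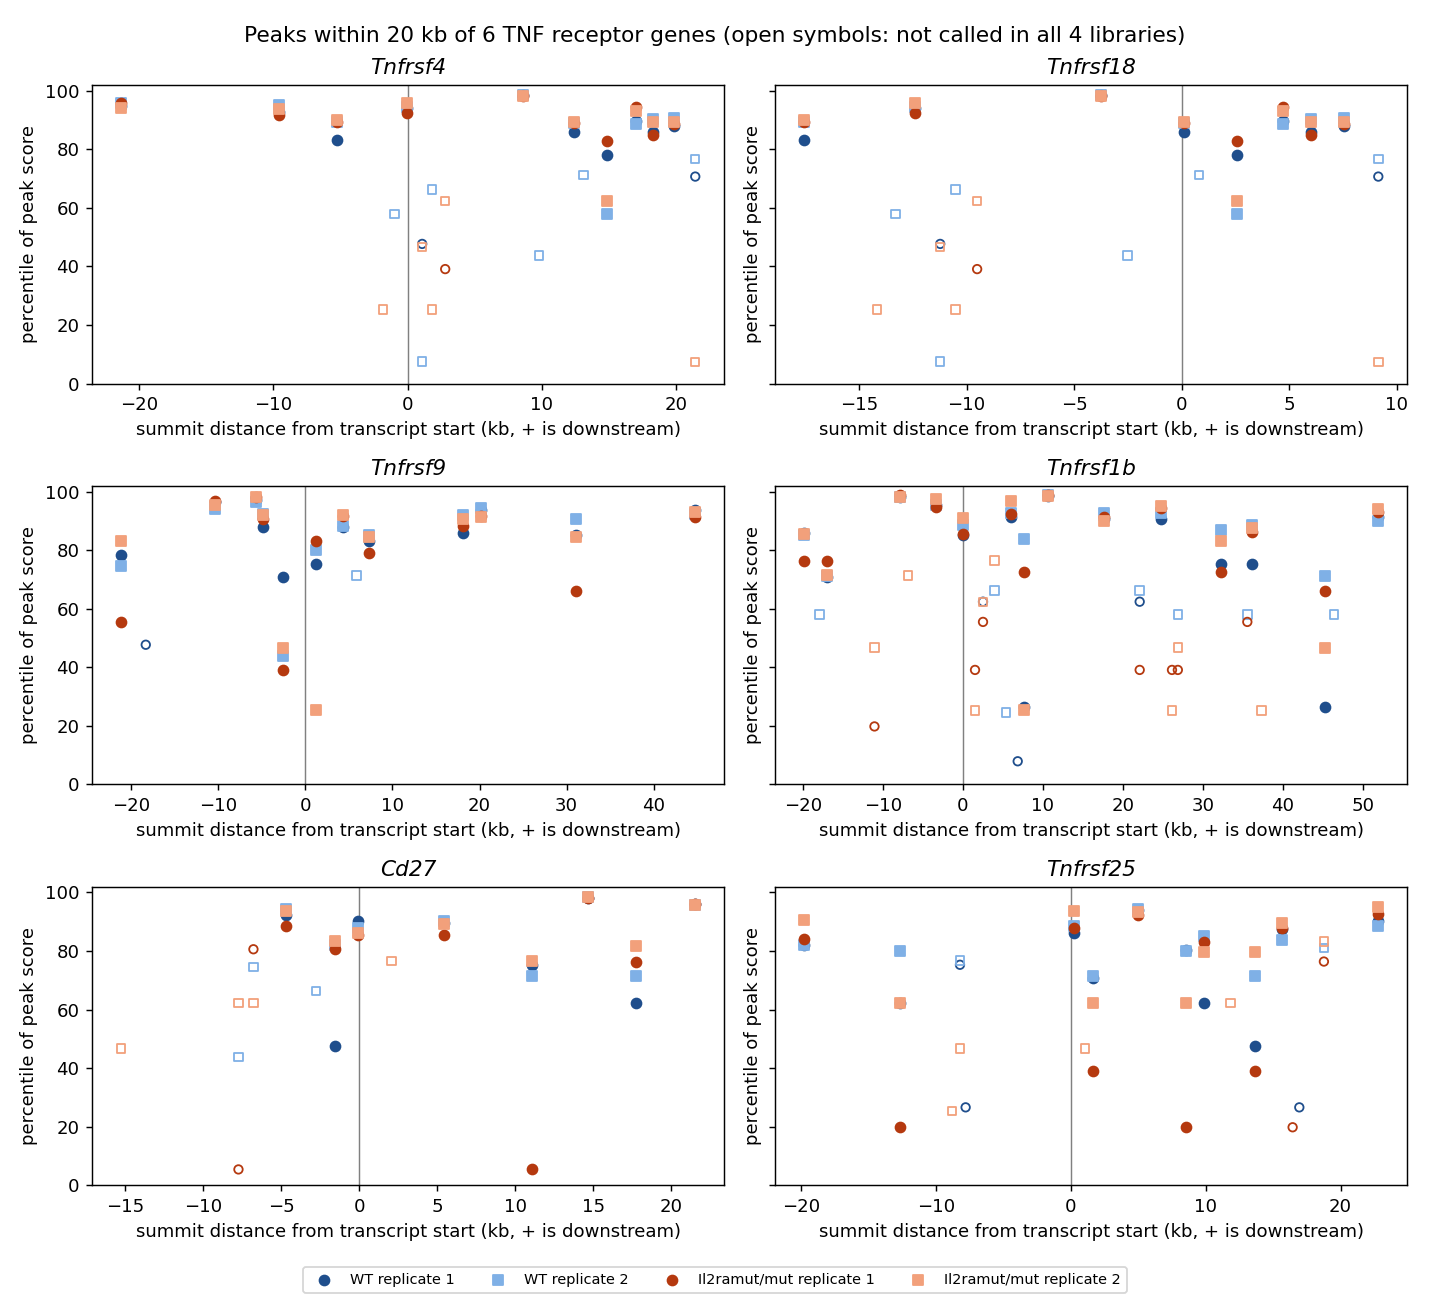
Percentile of the peak score (vertical axis) of every region against the distance of its highest summit from the start of the longest coding transcript (horizontal axis, kb, downstream positive), for each of the 6 receptor genes. Blue symbols are WT and red symbols Il2ramut/mut libraries, circles replicate 1 and squares replicate 2, and open symbols mark the 37 regions not called in all 4 libraries. Most filled symbols sit above 80, and the strongest regions of Tnfrsf1b, Tnfrsf4 and Tnfrsf18 lie away from the start.

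All 6 receptors had a promoter region called in every library, though at Tnfrsf9 the highest lay at the start of a shorter coding transcript. A promoter region was taken as the highest region within 1 kb of the start of a transcript in the GENCODE basic set, and one was called in all 4 libraries for 51.6% of coding genes. The 6 receptors ranked between median percentiles of 87.0 and 94.3, below the median of 94.4 over coding genes with such a region. Tnfrsf4 (ENSMUSG00000029075, chr4:156013843-156016612, plus strand), the gene of OX40, had the highest of the 6. Its region chr4:156013297-156014422 stood at percentiles of 94.2 and 94.4 in WT and 92.5 and 95.7 in Il2ramut/mut, with fold enrichments of 20.3, 27.3, 17.9 and 24.8. The genotypes overlapped. Tnfrsf18 (ENSMUSG00000041954, chr4:156026164-156028895, plus strand), the gene of GITR, had its promoter region at chr4:156025813-156026652, with the summit in exon 1. It stood at 86.0 and 88.9 in WT and 89.1 and 89.3 in Il2ramut/mut. The mutant libraries were higher by a narrow margin on this scale only, since the genotypes overlapped once equal numbers of peaks were ranked or fold enrichments were quantile-normalised.

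The promoters of the other 4 receptors lay between 85.1 and 93.5 in single libraries. Tnfrsf1b (ENSMUSG00000028599, chr4:145213463-145246870, minus strand), the gene of TNFR2, had its region at chr4:145246054-145247299 at percentiles of 85.1 and 88.6 in WT and 85.6 and 90.9 in Il2ramut/mut. Tnfrsf25 (ENSMUSG00000024793, chr4:152115934-152120119, plus strand), the gene of DR3, had its region at chr4:152115644-152116661 at 86.0 and 88.6 in WT and 87.8 and 93.5 in Il2ramut/mut. At both genes the genotypes overlapped, and replicate 2 was the higher library in each genotype. Cd27 (ENSMUSG00000030336, chr6:125232622-125237010, minus strand), which encodes the receptor of CD70, had its region at chr6:125236491-125237961. Its percentiles were 90.4 and 87.7 in WT and 85.6 and 86.3 in Il2ramut/mut, and its fold enrichments 13.7, 13.6, 9.42 and 8.75. Both WT libraries were above both mutant libraries, also with equal numbers of peaks and after quantile normalisation. The log2 difference in fold enrichment (Il2ramut/mut minus WT) was -0.50 ± 0.26 (SE) and did not pass the test (limma, adjusted p = 0.617). Without WT replicate 1 the difference was -0.25, and without WT replicate 2 it was -0.77.

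**Figure D2:**
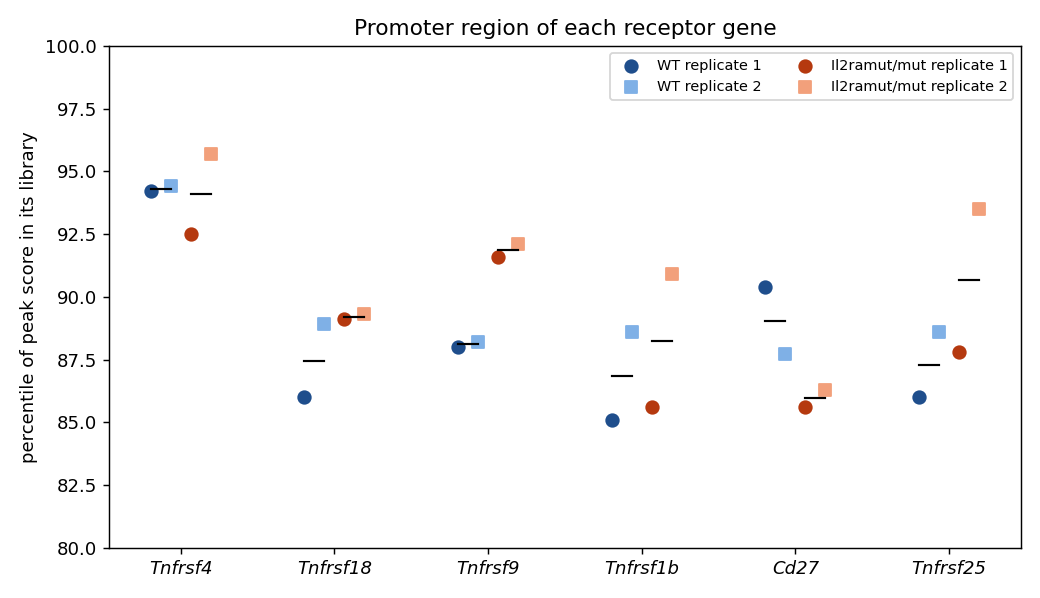
Percentile of the promoter region of each receptor gene in each library (vertical axis from 80 to 100, blue WT, red Il2ramut/mut, circles replicate 1, squares replicate 2), with black bars at the mean of the 2 libraries of a genotype. The genotypes overlap at Tnfrsf4, Tnfrsf1b and Tnfrsf25, and do not overlap at Cd27 (WT higher), Tnfrsf9 (Il2ramut/mut higher) and, narrowly, Tnfrsf18. The Tnfrsf9 region lies at the start of a shorter coding transcript, in intron 1 of the longest. It is the highest of several regions near a start of Tnfrsf9. Another of them, chr4:150927184-150928381, had a lower mean percentile in Il2ramut/mut than in WT and is not shown.

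Tnfrsf9 (ENSMUSG00000028965, gene record chr4:150914562-150946102, plus strand), the gene of 4-1BB, had no called region over the start of its longest coding transcript at 150920155. The nearest, chr4:150921138-150921634, began within 1 kb of that start and had its summit in intron 1, 1.2 kb from the start. It was uneven, at percentiles of 75.3 and 79.9 in WT and of 83.0 and 25.3 in Il2ramut/mut. Its log2 difference was -0.21 ± 0.38 (SE). The start of the gene record belongs to a transcript outside the GENCODE basic set and lies in a region at the Park7 promoter, so it was not used as a start of Tnfrsf9. Of the regions near a start in the basic set, the highest was chr4:150924236-150925504, which covers the start of a shorter coding transcript and has its summit 4.3 kb downstream of 150920155. It stood at 88.0 and 88.2 in WT and 91.6 and 92.1 in Il2ramut/mut, with fold enrichments of 11.1, 14.1, 16.1 and 15.1. Both mutant libraries were above both WT libraries in each of 3 scalings (percentiles, equal numbers of peaks, quantile-normalised fold enrichment), with a log2 difference of 0.38 ± 0.20 (SE) that did not pass the test (limma, adjusted p = 0.617). Its summit window, shown above, holds a STAT5 word and an AP-1 word. Another region near a start in the basic set, chr4:150927184-150928381, went the other way. It stood at 83.2 and 85.1 in WT and 78.9 and 84.5 in Il2ramut/mut. The log2 difference there was -0.31 ± 0.24 (SE, limma adjusted p = 0.724). The genotypes overlapped by percentile, but WT was higher with equal numbers of peaks and after quantile normalisation. The strongest region of the window was that Park7 region, chr4:150913645-150914880. Park7, an oxidative stress gene, lies on the other strand. The region stood at 97.3 and 96.4 in WT and 98.0 and 98.1 in Il2ramut/mut, a median of 97.7, which would be the highest of the 6 promoters if it were counted for Tnfrsf9.

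The strongest chromatin of the receptor loci lay away from the promoters. At Tnfrsf1b, a region in intron 1 with its summit 10.6 kb from the start, chr4:145235752-145236659, stood at 98.6 and 98.9 in WT and 99.0 and 98.6 in Il2ramut/mut. Its fold enrichments were 43.1 and 63.7 in WT and 54.3 and 47.1 in Il2ramut/mut, against 9.12, 14.7, 9.42 and 13.1 at the promoter of the same gene. A region 7.8 kb upstream of Tnfrsf1b, chr4:145254332-145255028, was next at 98.1 in both WT libraries and 98.8 and 98.2 in Il2ramut/mut, and holds 2 STAT5 words and an AP-1 word at its summit. Between Tnfrsf4 and Tnfrsf18, chr4:156021143-156022923 stood at 98.5 in both WT libraries and 98.1 and 98.2 in Il2ramut/mut, 8.6 kb downstream of the start of Tnfrsf4 and 3.7 kb upstream of that of Tnfrsf18. It lies at annotated starts of the non-coding genes Gm37090, Gm25982 and Gm16008. WT was higher at it in all 3 scalings, by a small amount, with a log2 difference of -0.20 ± 0.11 (SE, limma adjusted p = 0.651).

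At Cd27 the strongest region was in intron 4 of Vamp1, the gene of a synaptobrevin that overlaps Cd27 on the other strand. This region, chr6:125221780-125222937, stood at 98.1 and 98.4 in WT and 98.0 and 98.4 in Il2ramut/mut, and lies 14.6 kb downstream of the Cd27 start. At Tnfrsf25 the strongest was chr4:152119391-152121259, with its summit in exon 13 of Espn, an actin-bundling gene that follows Tnfrsf25. Its percentiles were 94.0 and 94.2 in WT and 92.3 and 93.3 in Il2ramut/mut, so that WT was higher in all 3 scalings, with a log2 difference of -0.35 ± 0.16 (SE, limma adjusted p = 0.606). The top region of the Tnfrsf25 window therefore ranked lower than that of the other 5 receptors, with a median percentile of 93.6 against 97.7 to 98.8.

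No region at the 6 receptors passed the test for a difference between genotypes. In limma on quantile-normalised log2 fold enrichments, 0 of the 54 regions and 0% of the 38281 regions tested had an adjusted p under 0.05, the lowest being 0.582 both among members and overall. At an unadjusted p under 0.05 there were 3 member regions higher in WT and 2 higher in Il2ramut/mut, where 4.42% and 4.14% of all regions were. The median log2 difference (Il2ramut/mut minus WT) was -0.10 over the 54 regions and 0.00 over all regions, with a median SE of 0.23, and 29 of the 54 (53.7%) had a lower mean in Il2ramut/mut, against 49.1% of all regions. With 2 libraries against 2, an exact permutation test of a single region cannot go below a two-sided p of 0.333.

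The member regions with an unadjusted p under 0.05 were distal to the promoters. Downstream of Tnfrsf9, in intron 24 of Camta1, chr4:150950972-150951591 had percentiles of 85.1 and 90.8 in WT and 66.2 and 84.5 in Il2ramut/mut, with fold enrichments of 9.12, 18.2, 5.38 and 7.78. This was the largest log2 difference of the 54 regions, at -0.91 ± 0.31 on the log2 scale (SE, limma adjusted p = 0.582). In intron 6 of Tnfrsf9, chr4:150939795-150940700 stood at 93.6 and 94.4 in WT and 91.8 and 91.5 in Il2ramut/mut, with a log2 difference of -0.51 ± 0.18 (SE, limma adjusted p = 0.582). In intron 10 of Espn, 8.5 kb from the Tnfrsf25 start, chr4:152124286-152124828 stood at 80.3 and 79.9 in WT and 19.8 and 62.3 in Il2ramut/mut. Its log2 difference was -0.75 ± 0.23 (SE). It was a weak region, with fold enrichments of 7.09 and 8.08 in WT and 4.04 and 4.86 in Il2ramut/mut. These stand for 13, 15, 8 and 9 reads at the summit. In these 3 regions the lowest WT library was above the highest mutant library on every scaling. By percentile, mutant replicate 1 was far below mutant replicate 2 at the first and the third. At the third, however, the mutant libraries held 8 and 9 reads.

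Of the 2 regions with an unadjusted p under 0.05 that were higher in Il2ramut/mut, the one described here lies beyond Tnfrsf18. This region, chr4:156030474-156031260, is 4.7 kb downstream of the Tnfrsf18 start, at an annotated start of Gm16008. It stood at 89.6 and 88.6 in WT and 94.3 and 93.0 in Il2ramut/mut, with fold enrichments of 12.7, 14.7, 22.4 and 17.0 and a log2 difference of 0.58 ± 0.23 (SE, limma adjusted p = 0.582). Without Il2ramut/mut replicate 1 this difference was 0.38. The genotypes did not overlap at it on any of the 3 scalings. Among the regions of Tnfrsf1b whose percentiles did not overlap between genotypes, the one with the largest gap in means towards Il2ramut/mut, chr4:145194533-145195337 at the Vps13d promoter, stood at 91.5 and 89.9 in WT and 93.1 and 94.2 in Il2ramut/mut.

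**Figure D3:**
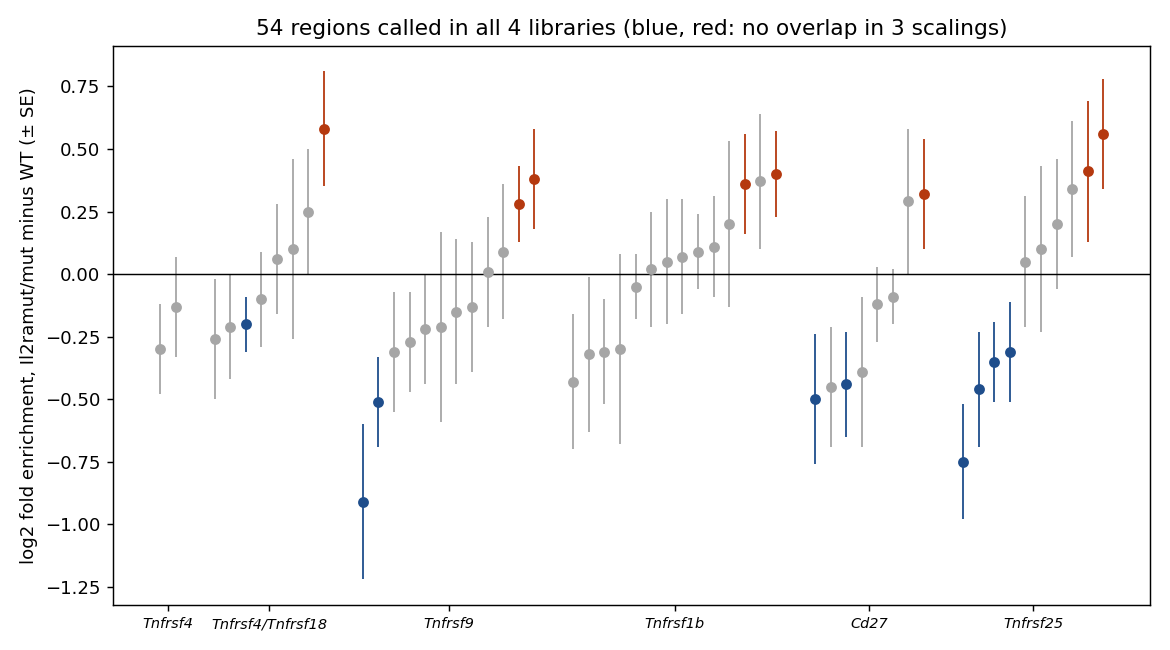
Difference in quantile-normalised log2 fold enrichment, Il2ramut/mut minus WT (vertical axis, points are regions, bars the SE from limma), for the 54 regions called in all 4 libraries, grouped by gene and sorted within each group. Blue points (WT higher, 9 regions) and red points (Il2ramut/mut higher, 8 regions) had no overlap between genotypes in 3 scalings, and no point passed an adjusted p of 0.05.

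The count of regions without overlap between genotypes depended on the scaling. By percentile, both WT libraries were above both mutant libraries at 9 of the 54 regions (16.7%, against 12.6% of all regions) and both mutant libraries were above both WT libraries at 13 (24.1%, against 26.2%). When the same number of top-ranked peaks was taken from each library, the counts were 18 and 8 of 53, that is 34.0% and 15.1%, where all regions gave 20.2% and 19.9%. Quantile-normalised fold enrichments gave 17 and 8 of 54, or 31.5% and 14.8%, where all regions gave 17.5% and 18.2%. Which genotype had the larger count thus changed with the scaling. Beside all regions, the member share was higher for WT and lower for Il2ramut/mut in each scaling, and these differences in share were not tested. Under all 3 scalings 9 of the 54 regions (16.7%) were higher in WT and 8 (14.8%) in Il2ramut/mut, where 10.4% and 17.0% of all regions were. Of the 9, 4 were at Tnfrsf25, 2 at Tnfrsf9, 2 at Cd27 and 1 between Tnfrsf4 and Tnfrsf18. Of the 8, Tnfrsf9, Tnfrsf1b and Tnfrsf25 had 2 each, Cd27 had 1, and 1 was shared by Tnfrsf4 and Tnfrsf18. Tnfrsf1b, with 14 regions in all 4 libraries, had none higher in WT under all 3. Its regions chr4:145228870-145230272 and chr4:145266465-145266975 were higher in WT with equal numbers of peaks and with quantile-normalised fold enrichments, but overlapped by percentile.

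Presence and absence of peaks gave few differences, all at weak regions. No region was called in both WT libraries and in no mutant library (0 of 91, against 2.70% of all regions), and 4 were called in both mutant libraries and in no WT library (4.40%, against 3.56%). Of those 4, 3 lie at Tnfrsf1b and 1 just behind Tnfrsf4. They stood at percentiles of 39.1 and 25.3 in intron 8 of Tnfrsf1b (chr4:145220669-145220875), 39.1 and 25.3 in its intron 1 (chr4:145245190-145245507), 19.8 and 46.7 upstream of it (chr4:145257800-145258065) and 39.1 and 62.3 behind Tnfrsf4 (chr4:156016538-156016793) in mutant replicates 1 and 2. All of these percentiles lie below the median of 83.7 for regions called in all 4 libraries.

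Reproducible OCRs of each genotype were called by the irreproducible discovery rate (IDR), which keeps regions that rank alike in both replicates. Of the 67 member regions called in both libraries of a genotype, 38 (56.7%) were common to the genotypes, 6 (8.96%) were unique to WT and 4 (5.97%) to Il2ramut/mut, against 27.1%, 5.41% and 5.14% of all such regions. Most unique OCRs were still called in the other genotype, at a lower or less even rank. The WT-unique OCRs were 3 in the Tnfrsf9 window, 2 in the Tnfrsf25 window and 1 near Tnfrsf4 and Tnfrsf18. Those at Tnfrsf9 were the Camta1 region and the uneven intron 1 region described above, and chr4:150898728-150899163 in intron 6 of Park7, at 78.2 and 74.5 in WT and 55.5 and 83.3 in Il2ramut/mut. Those at Tnfrsf25 were the region in intron 10 of Espn with the low mutant values, and chr4:152107244-152107893 in Plekhg5, at 75.3 and 76.7 in WT, without a peak in mutant replicate 1 and at 46.7 in mutant replicate 2. The remaining one, chr4:156034913-156035535 in Ttll10, stood at 70.7 and 76.7 in WT, had no peak in mutant replicate 1 and stood at 7.3 in mutant replicate 2.

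The Il2ramut/mut-unique OCRs were 2 in Espn near Tnfrsf25 and 2 near Cd27. In Espn, chr4:152125100-152126667 stood at 62.4 and 85.1 in WT and 83.0 and 79.7 in Il2ramut/mut, and chr4:152134502-152134964 had no peak in WT replicate 1, 81.0 in WT replicate 2, and 76.4 and 83.3 in Il2ramut/mut. Near Cd27, chr6:125238343-125238875, 1.6 kb upstream of the start, stood at 47.7 and 82.1 in WT and 80.6 and 83.3 in Il2ramut/mut. In these 3 cases WT replicate 2 was at the level of the mutant libraries and WT replicate 1 was the low one. The last, chr6:125219029-125219444 in intron 3 of Vamp1, stood at 62.4 and 71.3 in WT and 76.4 and 81.8 in Il2ramut/mut, and did not overlap between genotypes. Without WT replicate 1, only 3 WT-unique and 1 Il2ramut/mut-unique OCRs were counted, and without mutant replicate 1 the Il2ramut/mut-unique OCRs were 2.

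Words of transcription factor motifs were counted in the 300 bases around the highest summit of each region called in all 4 libraries. The STAT5 word was in 10 of the 54 member windows (18.5%) and in 8.78% of 38276 windows of the series. It was found at each receptor locus, at Tnfrsf1b (2 regions), Tnfrsf9 (3), Tnfrsf25 (2), Cd27 (1), and at Tnfrsf18 and beyond it (2). The promoter of Tnfrsf18 was among them, with TTCACAGAA 29 bases from its summit. The ETS word was in 20.4% of member windows and 13.8% of all windows, GATA in 16.7% and 11.4%, AP-1 in 7 of 54 member windows and 10.7% of all, RUNX in 7 of 54 and 10.1%, and TCF/LEF (ATCAAAG) in 5.56% and 4.67%. The word of the KLF and SP factors (GGGGCGG) was in 7.41% of member windows and 16.9% of all windows. The NF-kB word (GGANTTTCC) and the forkhead word (TGTTTAC) were in 0 of 54 member windows, and in 1.57% and 3.99% of all windows. The searches used both strands, no word is contained in another, and a match is a match of letters, not a bound site. GC content had a median of 53.2% in member windows and 51.3% in all windows.

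The 10 member regions with a STAT5 word had a median log2 difference (Il2ramut/mut minus WT) of 0.06, with 3 of 10 lower in Il2ramut/mut. The 44 without the word had a median of -0.13. Both medians are smaller in size than the median SE of a single member region, 0.23. That SE does not measure the spread of a median over regions, and the contrast was not tested. Over all regions the medians were -0.02 with the word, 52.7% of them lower in Il2ramut/mut, and 0.01 without it. The lowest value among the 10 was -0.44 ± 0.21 (SE) at chr6:125230940-125232774, which stood at 89.6 and 90.2 in WT and 85.6 and 89.3 in Il2ramut/mut. This region lies at the Tapbpl promoter, with its summit in exon 1 of Tapbpl, and overlaps the Cd27 gene body. The Tnfrsf9 intron 1 region had a log2 difference of 0.38 ± 0.20. No value of these regions passed the test.

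**Figure D4:**
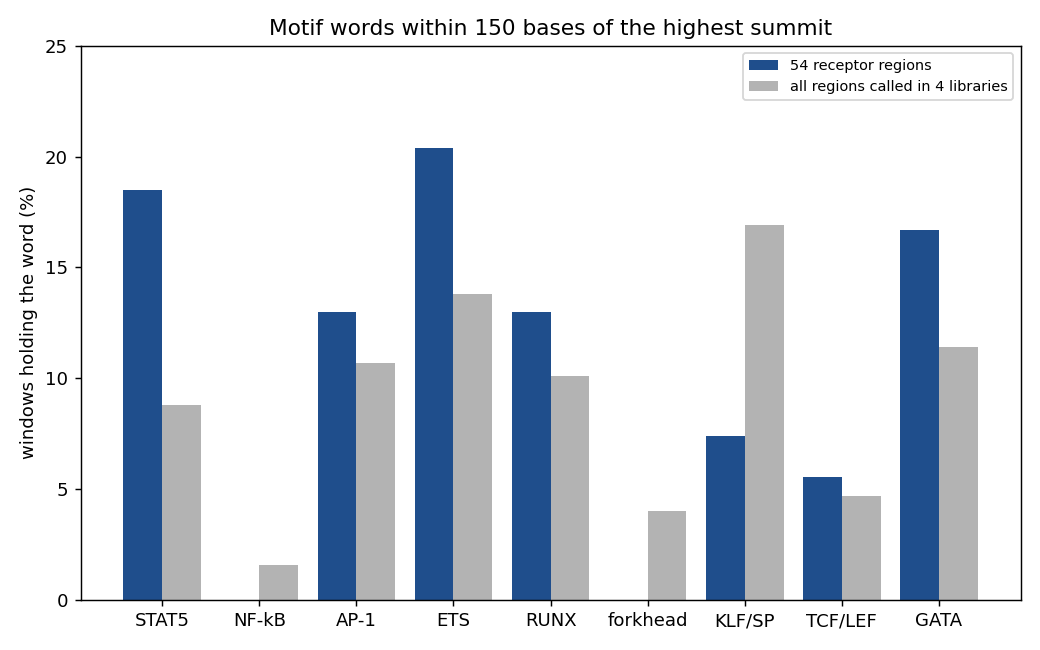
Percent of 300-base summit windows that hold each motif word (bars from 0, blue the 54 receptor regions, grey all 38276 windows of regions called in all 4 libraries). The STAT5 bar is at 18.5% for the receptors and 8.78% for all windows, the KLF/SP bars show the opposite order, and no receptor window held the NF-kB or forkhead word.

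The promoters of the pathway are given beside those of all coding genes, of which 51.6% had a region in all 4 libraries, with a median percentile of 94.4. All 16 genes of the adaptors and the NF-kB branch, among them the TRAF adaptors, the cIAP ligases Birc2 and Birc3, and the NF-kB subunits, had a promoter region in all 4 libraries, with a median percentile of 97.2. Traf2, an adaptor of most of these receptors, stood at 99.8 and 99.7 in WT and 99.7 in both mutant libraries, and the lowest of the 16, Traf3, at 83.2 and 83.0 in WT and 89.4 and 90.1 in Il2ramut/mut. Of the 7 ligand genes, 3 (Tnfsf4, Tnf and Lta) were called in all 4 libraries, 2 (Tnfsf9 and Tnfsf15) in some, and 2 (Tnfsf18, the GITR ligand, and Cd70, the CD27 ligand) in none. Among 22 other TNF receptor genes, 13 were called in all 4 libraries and 5 (Ltbr, Tnfrsf13b, Tnfrsf17, Ngfr and Eda2r) in none. None of the receptor, ligand, adaptor or other TNF receptor promoters passed an adjusted p of 0.05 in limma. An unadjusted p under 0.05 was found at 2 of the 16 adaptor and NF-kB genes, Traf3 and Rel, both higher in Il2ramut/mut. It was also found at 3 of the 13 other receptors called in all 4 libraries, Tnfrsf19 and Relt (WT higher) and Tnfrsf26 (Il2ramut/mut higher). Over all regions tested the shares were 4.42% higher in WT and 4.14% higher in Il2ramut/mut.

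Marker promoters were read to check the label of the sorted cells. All 8 Treg and T cell genes were called in all 4 libraries. Foxp3 stood at percentiles of 47.7 and 74.5 in WT and 72.6 and 71.4 in Il2ramut/mut. Its promoter region was not reproducible by IDR in either genotype, and that of Cd4 was reproducible in WT only. Il2ra stood at 94.6 and 95.1 in WT and 89.8 and 91.2 in Il2ramut/mut. None of 4 B cell and none of 5 myeloid genes had a called promoter. Of the CD8 and NK genes, Cd8b1 was called in all 4 libraries at 84.2 and 84.5 in WT and 66.2 and 76.5 in Il2ramut/mut, and Cd8a, Ncr1 and Klrb1c in none. Of 4 stromal genes, Pecam1 and Col1a1 were called in all 4 libraries and Epcam in 3. Among these markers, Il2ra, Cd8b1 and Pecam1 had an unadjusted p under 0.05 in limma, all higher in WT. Their log2 differences were -0.83 ± 0.17, -0.71 ± 0.24 and -0.61 ± 0.22 (SE), each with a limma adjusted p of 0.582. The part of other cells in the receptor results was not tested.

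**Figure D5:**
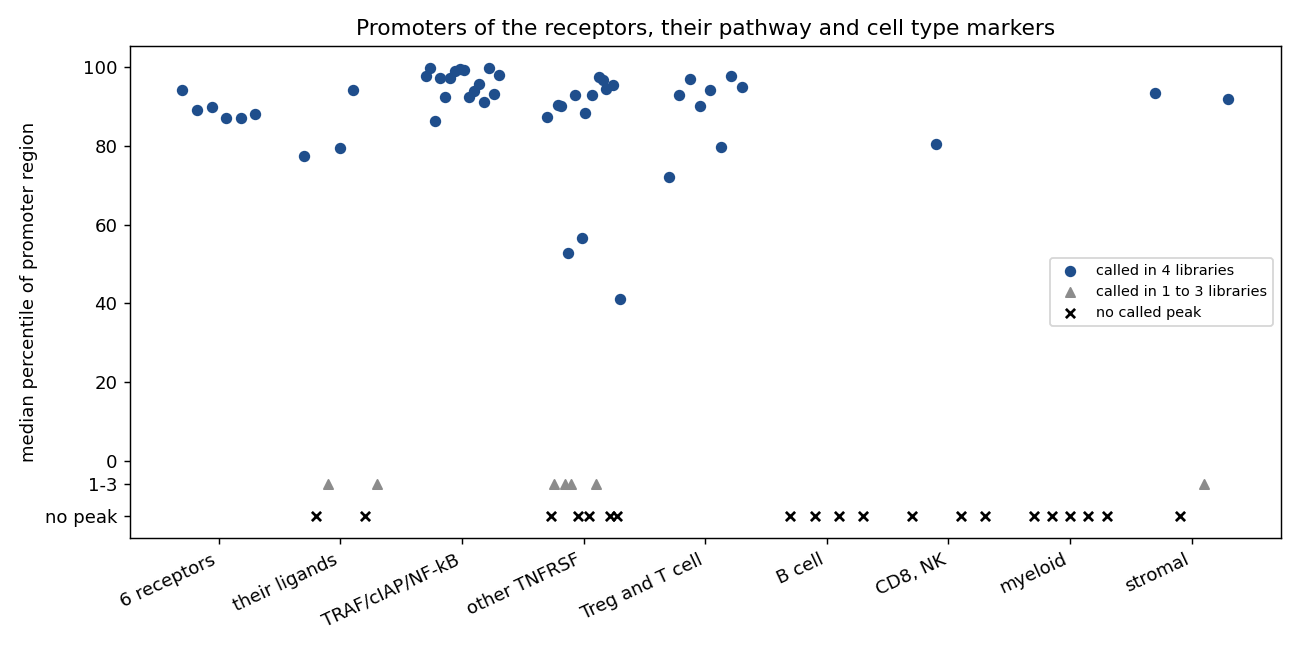
Median percentile over the 4 libraries of the promoter region of each gene (vertical axis, blue points, 1 per gene), by gene list, with grey triangles for promoters called in 1 to 3 libraries and crosses for promoters without a called peak. The 6 receptors lie between 87.0 and 94.3, the adaptor and NF-kB genes between 86.3 and 99.7, and the B cell and myeloid lists hold crosses only.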

How the data were processed

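ATAC-seq was done on LN Treg cells of WT and Il2ramut/mut Foxp3-RFP reporter mice, 2 libraries each, grouped by the genotype in the labels. The submitters' processing notes name Trim Galore 0.3.7, BWA 0.7.13, SAMtools 0.1.19, Picard 1.92 and MACS2 2.1.0, with mm10. The authors aligned the reads by BWA mem, discarded duplicates and mitochondrial reads, used concordant pairs after shifting, and called narrow peaks library by library. The deposited values per peak are the fold enrichment (a ratio) at the summit, −log10 p, −log10 q, a score that equals 10 times −log10 q, and the summit offset. They hold no counts, so the depth is unknown, and precision is given by the 2 libraries per group. A whole number of summit reads explained 100% of the folds, within 0.05 reads or 0.0001 of the value, with median summit reads of 8, 8, 10 and 8.

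Genes came from GENCODE M21 (GRCm38, coordinates of mm10). Sequences were read from the RefSeq assembly of GRCm38. The members and lists were chosen with earlier results of these data known. Named regions are, per gene, the promoter region, the highest other region, regions called in both libraries of 1 genotype only, IDR-unique regions, regions past an adjusted p of 0.05, and, among regions whose percentiles did not overlap between genotypes, the largest gap in each direction. Regions with an unadjusted p under 0.05 or a motif were named after their values were seen. One such region, higher in Il2ramut/mut, is not reported here. IDR (threshold 0.05, ranks of −log10 p) and percentiles were computed with Python 3.11.15, numpy 2.4.6, pandas 2.3.3 and scipy 1.17.1. Differences were tested with limma 3.58.1 (R 4.3.3) on quantile-normalised log2 fold enrichment of regions called in all 4 libraries, with a trended prior and Benjamini-Hochberg adjustment over 38281 regions on assembled chromosomes. In simulated data 0 of 100 regions changed 2-fold and 37 of 100 changed 4-fold were called. The simulated spread was assumed, not estimated from these libraries, and regions with the fewest reads were not among those changed. These shares are therefore not the power at a given member region. Alternatives are listed in the closing section. Figures used matplotlib 3.10.9.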

Additional observations from a re-analysis of the deposited data

How the results depend on the processing

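In limma the count of member regions past the threshold was 0 under each alternative tried (median centring, normal scores of percentiles, a stricter −log10 q of 3 or more, no trend, each library left out, and a replicate block, with 0 calls among 54 members and 0 overall). Library depth is unknown. Median centring called 176 regions of the series higher in WT and 135 in Il2ramut/mut, and normal scores 5 and 10. Replicate numbers did not pair the libraries (correlation of deviations 0.012).

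Counting in the gene body only left 38 regions, 23 in all 4 libraries. WT-unique OCRs were 3 under the stricter −log10 q, and 3 at an IDR of 0.01, where Il2ramut/mut-unique OCRs were 2. Without the IDR step the latter were 9. Non-overlapping percentiles were 4 for WT under the stricter −log10 q. With equal numbers of peaks they were 18 (WT) and 8 (Il2ramut/mut), and with quantile-normalised folds, an alternative chosen after seeing the data, 17 and 8. Leaving out single libraries gave 15 to 24 (WT higher) and 15 to 24 (Il2ramut/mut higher), 3 to 8 WT-unique and 1 to 6 Il2ramut/mut-unique OCRs, the remaining library of a genotype then standing for it by its top-ranked peaks. WT higher was 23 without WT replicate 1, 15 without WT replicate 2, 16 without Il2ramut/mut replicate 1 and 24 without Il2ramut/mut replicate 2. Other counts were within 1.5 times. Leaving out a library leaves 1 value to set against 2, and the cause of these shifts was not tested.

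Of 21 named regions with a log2 difference, 8 changed sign in some alternative, none passed the threshold. With median centring the Tnfrsf1b intron 1 region came to 0.01 and the Espn region chr4:152125100-152126667 to -0.01. With single libraries left out, ranges were -0.18 to 0.08 at Tnfrsf1b intron 1, -0.17 to 0.28 at the Tnfrsf1b promoter, -0.46 to 0.19 at the Park7 intron, -0.76 to 0.33 at chr4:150921138-150921634 in Tnfrsf9, -0.33 to 0.42 at that Espn region, -0.32 to 0.11 at the Tnfrsf4 promoter, -0.02 to 0.16 at the Tnfrsf18 promoter and -0.06 to 0.55 at chr6:125238343-125238875 near Cd27.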
